A study of Sus scrofa with 220 samples.

Results

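The epiblast was followed between 2 stages of the pig embryo, the late blastocyst (LB) and the spherical embryo (Sph), in single-cell transcriptomes made with Smart-seq2, a full-length protocol that selects polyadenylated RNA. Cells were chosen by their deposited cell type label, and 73 of the 220 cells of the series took part, 25 labelled LB EPI and 48 labelled Sph EPI (EPI, epiblast). The letters of the cell identifier gave the embryo. The LB EPI cells came from 4 embryos (AN with 2 cells, AO with 5, AP with 8 and AQ with 10) and the Sph EPI cells from 4 others (C with 14, D with 11, E with 4 and F with 19). All embryos were unmanipulated and conceived by artificial insemination in crossbred Large White and Landrace sows, and the spherical embryos were collected on later days of gestation than the late blastocysts. Late blastocysts were incubated in anti-pig serum and then in complement to lyse the trophectoderm (immunosurgery), whereas the 2 lineages of spherical embryos were separated by hand, with no serum or complement step described. Stage and this handling therefore cannot be told apart in any difference given here. The study clustered the transcriptomes and read lineages from known markers. The labels EPI and HYPO (hypoblast) therefore rest at least in part on the transcriptomes of the same cells. How far the separation by hand entered the labels of spherical embryos is not stated, and the stage was known from collection.

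The epiblast is the part of the blastocyst that gives rise to the embryo proper, and the hypoblast lines it and forms the yolk sac endoderm. In the pig, attachment to the uterus comes late, so that the epiblast matures while the conceptus is still free-floating. The early epiblast is known for transcription factors of naive pluripotency, and the later, primed epiblast for factors that prepare the germ layers. Molecular chaperones, a few of which are described here, keep other proteins folded and are induced when cells are heated or otherwise stressed.

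Counts of the cells of one embryo were summed, so that each embryo and not each cell was a replicate (n = 4 against 4). The sums ran from 3694298 counts in AN to 47016945 in F, and each cell held between 1039303 and 5696373 counts. Values are the embryo sums scaled to a common library size with trimmed-mean factors and given as CPM (counts per 1000000), and fold changes are coded as Sph EPI minus LB EPI, with their standard error. In a principal component analysis of the 8 sums, AN stood apart from the rest on the first component (28.2% of the variance) and E on the second (23.8%), and these were the embryos with the fewest cells of each stage. Counts are therefore also given without both of them. After each cell was thinned to 1000000 counts, 5413 ± 545 genes were detected per LB EPI cell and 5886 ± 777 per Sph EPI cell (mean ± SD of 4 embryos, 2-sided exact permutation p = 0.371). The median Spearman correlation over pairs of cells was taken in each embryo, where AN has 2 cells and so a single pair. Its mean over embryos was 0.594 ± 0.029 in LB EPI and 0.659 ± 0.049 in Sph EPI (2-sided exact permutation p = 0.0571, the smallest possible p being 0.0286).

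Levels of defining lineage markers are given by label. The labels rest at least in part on the same transcriptomes, so these values describe the groups and are no independent check of the labels. The summed level of the 9 epiblast markers tested was 797 to 3047 CPM in LB EPI and 1515 to 2059.8 CPM in Sph EPI, against 72.5 to 277 CPM in LB HYPO. The 19 hypoblast markers tested summed to 89.1 to 527 CPM in LB EPI and 136 to 231 CPM in Sph EPI, but to at least 6502 CPM in every LB HYPO embryo. Embryo AO, at 527 CPM, was the high value of LB EPI, where the next was 140.5 CPM. GATA4, a defining hypoblast factor, had no count in either epiblast group. The pluripotency factors NANOG, SOX2 and OCT4 were not analysed here.

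Of 14721 genes tested, 23 passed an adjusted p of 0.05 in edgeR's quasi-likelihood test, which is 0.156% of them. In Sph EPI, 9 of these rose and 14 fell, and 1999 genes had an unadjusted p under 0.05. For all 23 the embryo values did not overlap between the stages. Over all genes tested, every Sph EPI embryo lay above every LB EPI embryo for 5.14%, and below for 2.96%. An unadjusted p under 0.05 was reached by 7.53% of genes with higher values in Sph EPI and by 6.05% with lower values. Without AN and E, 33 genes were called, 15 of the 23 among them, and without AN alone 41, with 21 of the 23. The 8 calls lost without AN and E were HSP90AA1, BAG3, HAS2, CBX1, MAP9, ENSSSCG00000012693, ENSSSCG00000014810 and ENSSSCG00000016548. Leaving out AP or AQ gave 11 calls, leaving out C 14 and leaving out D 12. The sample titles carry 8 different prefixes, called pools here, although the labels do not say what a prefix stands for. Each stage was present in the first 4 and in the last 4. The first 4 pools gave 15 calls and the last 4 gave 7, and 9 and 5 of the 23 genes were among them. Lost in both sets were SERPINB5, PBK, PFKL, HIGD1A, CBX1, BAG3, HAS2, EIF4A1, SSR2, TMEFF2, MAP9, ENSSSCG00000010842 and ENSSSCG00000014810. Lost in the last 4 alone were CAV2, ANXA1, HSP90AA1, SYCP3 and ENSSSCG00000016548. One model with the hypoblast kept 7 of the 23. All 23 kept their direction in each of the 20 alternative analyses.

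**Figure D1:**
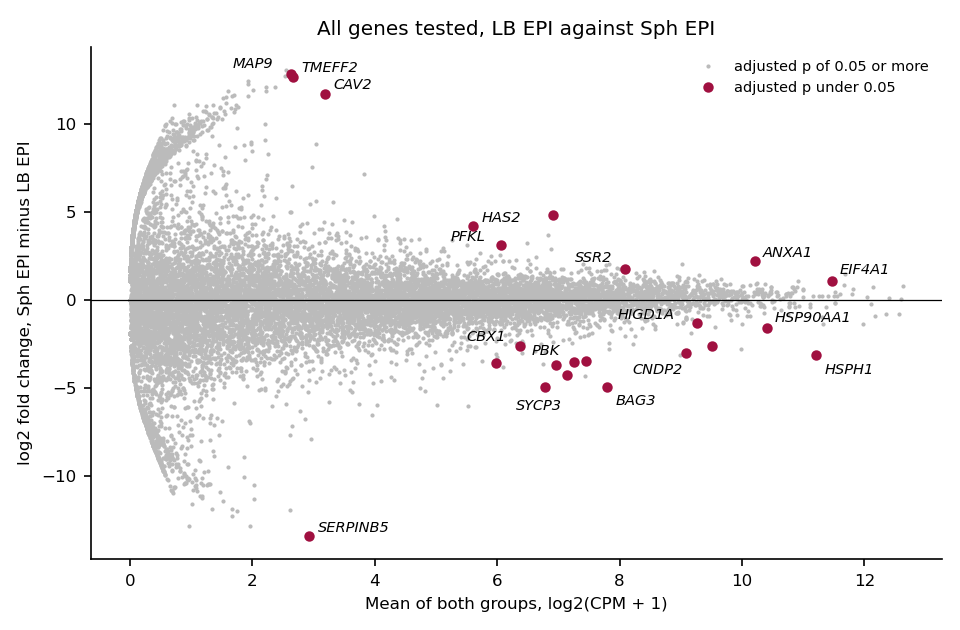
Each point is a gene, with the mean level of both groups on the x axis, log2(CPM + 1), and the log2 fold change of Sph EPI minus LB EPI on the y axis. Dark points are the 23 genes with an adjusted p under 0.05, and 17 of those with a symbol are named. The fan of points at the left holds genes with few or no counts in one stage.

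The chaperone HSPH1, a member of the HSP110 family that helps HSP70 release its clients, gave the smallest p among genes with a symbol. In LB EPI it measured 5777, 11043, 7815 and 4196 CPM in AN, AO, AP and AQ, and in Sph EPI 862, 693, 933 and 853 CPM in C, D, E and F. Every late blastocyst lay above every spherical embryo, with AQ the lowest of the former and E the highest of the latter (log2 fold change -3.11 ± 0.28, adjusted p = 0.00139). All 25 LB EPI cells and all 48 Sph EPI cells exceeded a TPM of 1 (TPM, the authors' value scaled for gene length and depth), so the difference was one of level, with a median of 2576 TPM per LB EPI cell and 318 TPM per Sph EPI cell. It was called in all 20 alternatives, with an adjusted p of 0.0248 at the most.

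A further pair of chaperone genes fell. HSP90AA1, the inducible form of HSP90, measured 2369, 2839, 1561 and 2753 CPM in LB EPI and 834, 651, 894 and 791 CPM in Sph EPI (log2 fold change -1.59 ± 0.22, adjusted p = 0.0154). BAG3, a co-chaperone that hands HSP70 clients to autophagy, measured 937, 2702, 2088 and 680.1 CPM in LB EPI and 144, 31.3, 12.2 and 25.3 CPM in Sph EPI (log2 fold change -4.91 ± 0.80, adjusted p = 0.0487). AO and AP held the highest BAG3 values, and C stood above the other spherical embryos. Neither call held without AN and E (adjusted p = 0.0706 for HSP90AA1 and 0.0751 for BAG3). HSP90AA1 was also lost without AQ, C or D, and BAG3 without AO, AP, AQ, D, E or F.

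Over the list of 53 chaperones and co-chaperones tested, these 3 were called, all lower in Sph EPI, against 0.156% of all genes tested. HSPH1 is also a marker given for the comparison, and the list was chosen with earlier results of these data known. By sign alone, 18 of the 53 were higher in Sph EPI and 34 lower. For 7 of the 53, every Sph EPI embryo lay below every LB EPI embryo, and for 2 every one lay above. Over all genes tested these shares were 2.96% and 5.14%. The median log2 fold change was -0.17 and that of all genes tested was 0. The summed level of the 53 genes was 55528, 86682, 71565 and 46682 CPM in LB EPI, and 49079, 43371, 37956 and 44569 CPM in Sph EPI, where AQ overlapped C. Among the members with the highest levels that were not called, HSPA5, the HSP70 of the endoplasmic reticulum, measured 5097, 8749, 10504 and 3566 CPM in LB EPI and 4245, 1263, 2519.6 and 2988 CPM in Sph EPI (adjusted p = 0.224). DNAJA1, an HSP40 partner of HSP70, had a log2 fold change of -1.35 (adjusted p = 0.193). The constitutive HSP90AB1 had -0.21 (adjusted p = 0.728) and TCP1, a subunit of the cytosolic chaperonin, -0.14 (adjusted p = 0.82). DNAJB1, another HSP40 and named after its values were seen, measured 1342, 3691, 2208 and 472 CPM in LB EPI and 460.1, 73.1, 248 and 102 CPM in Sph EPI, with an adjusted p of 0.113.

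The chaperone values of the hypoblast, taken from the same 2 kinds of embryo, were set beside these on a scaling over all 4 groups. HSPH1 measured 4731 to 9371 CPM in LB HYPO and 461 to 2680.4 CPM in Sph HYPO, with a log2 fold change of -1.92 ± 0.41 (adjusted p = 0.0561). BAG3 measured 3493 to 8261 CPM in LB HYPO and 96.96 to 817 CPM in Sph HYPO (adjusted p = 0.0843), and HSP90AA1 measured 2147 to 4295 CPM in LB HYPO and 653 to 2929.8 CPM in Sph HYPO (adjusted p = 0.38). HSPH1 and BAG3 were higher in every LB HYPO embryo than in every Sph HYPO embryo, although neither was called in the hypoblast. HSP90AA1 overlapped between LB HYPO and Sph HYPO and was not called there either. Late blastocyst hypoblast cells went through the same serum and complement, and the effect of this step was not tested. The summed chaperone list was 80963 to 97924 CPM in LB HYPO and 38974 to 44157 CPM in Sph HYPO. Stage and isolation cannot be told apart in either lineage.

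**Figure D2:**
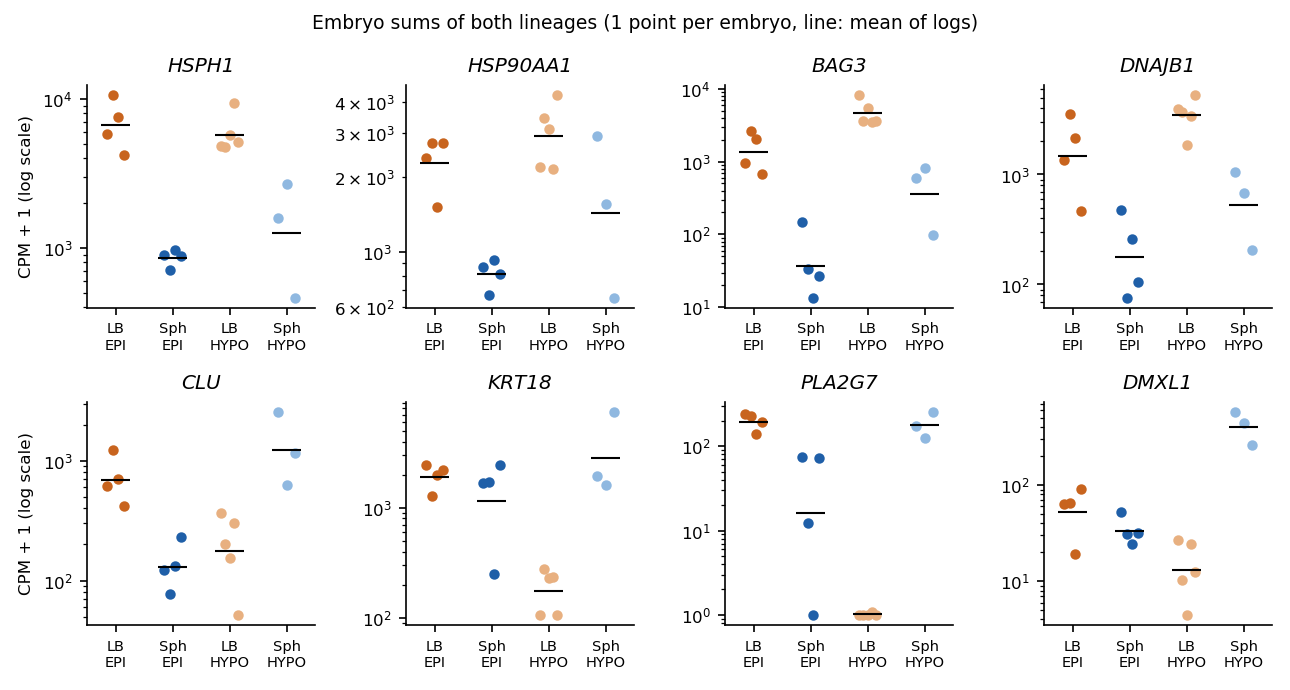
Each point is the sum of one embryo in LB EPI, Sph EPI, LB HYPO or Sph HYPO, as CPM + 1 on a log axis after scaling over the 4 groups, and the line is the mean of the logs. The upper row shows 4 chaperone genes, with LB above Sph in EPI and no overlap for HSPH1, HSP90AA1 and BAG3. The lower row shows 4 genes whose stage difference differed between EPI and HYPO, with every Sph HYPO embryo above every LB HYPO embryo. In EPI, CLU and PLA2G7 were lower in every Sph embryo, whereas KRT18 and DMXL1 overlapped between the stages.

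CNDP2, a cytosolic dipeptidase, fell as well. It measured 1738, 1732, 1191 and 1775 CPM in LB EPI and 149, 111, 307 and 238 CPM in Sph EPI (log2 fold change -3.0 ± 0.33, adjusted p = 0.00503), and like HSPH1 it was called in all 20 alternatives. PBK, a kinase active in mitosis, measured 442, 495, 543 and 405 CPM in LB EPI and 34.2, 12.2, 46.6 and 54.1 CPM in Sph EPI (log2 fold change -3.68 ± 0.45, adjusted p = 0.00818). It exceeded TPM 1 in 24 of 25 LB EPI cells and in 18 of 48 Sph EPI cells. The late blastocyst values of both genes lay above every spherical embryo, and both calls held whichever embryo was left out. PBK was lost in both sets of pools.

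Further genes with a symbol that fell were HIGD1A, CBX1, SYCP3 and SERPINB5. HIGD1A, a mitochondrial protein linked to the respiratory chain, had tight values within each stage, 926, 952, 1043 and 982 CPM in LB EPI and 409.8, 326, 479 and 353 CPM in Sph EPI (log2 fold change -1.32 ± 0.20, adjusted p = 0.0371). CBX1, the heterochromatin protein HP1 beta, measured 166, 152, 206 and 298 CPM in LB EPI and 29.95, 44.9, 37.7 and 25.3 CPM in Sph EPI (log2 fold change -2.58 ± 0.40, adjusted p = 0.0381). These 2 calls were lost in 6 of the 8 fits that left out an embryo. HIGD1A lost its call without AO, AP, AQ, C, D or F and CBX1 without AP, AQ, C, D, E or F.

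SERPINB5, or maspin, an epithelial member of the serpin family, was present in the late blastocyst epiblast and had no count at all in the spherical one. It measured 27.2, 114, 55.8 and 62.04 CPM in AN, AO, AP and AQ, from 3613 counts. It exceeded TPM 1 in 10 of 25 LB EPI cells (40%, exact 95% interval 21.1 to 61.3), which were 1 cell of AN, 2 of AO, 4 of AP and 3 of AQ. In Sph EPI it did so in 0 of 48 cells, so that the share could reach 6.25% by the limit of 3 counts and 7.40% by the exact interval. Against a floor of 3 counts over the group, the level was at least 2606-fold higher in LB EPI (adjusted p = 0.0144). The call was lost without AP, without AQ, in both sets of pools and in one model with the hypoblast. Such intervals and floors cover counting error only and treat cells as independent, although cells of one embryo are not.

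Among genes that rose, CAV2, a caveolin that lines plasma membrane pits, showed the converse pattern. In LB EPI it had 1 count in all, in AP. In Sph EPI it measured 72.4, 54.4, 116 and 94.4 CPM in C, D, E and F, from 9174 counts. The pooled levels differed 4239-fold (95% counting interval 761 to 167451), and the adjusted p was 0.00278. CAV2 exceeded TPM 1 in 0 of 25 LB EPI cells (up to 12% by the limit of 3 counts and 13.7% by the exact interval). It did so in 27 of 48 Sph EPI cells (56.2%, exact 95% interval 41.2 to 70.5), namely 6 of 14 in C, 6 of 11 in D, 2 of 4 in E and 13 of 19 in F. Within a spherical embryo the cells were therefore mixed for CAV2, from 0 TPM to at most 210 TPM. The call held whichever embryo was left out, and was lost in the last 4 pools (adjusted p = 0.297) and in one model with the hypoblast (adjusted p = 0.158). CAV1, its partner caveolin and its neighbour in the RefSeq gene order, measured 0, 4.18, 0 and 0 CPM in LB EPI and 261, 46.3, 167 and 151 CPM in Sph EPI. Its adjusted p was 0.167, although 45 of 48 Sph EPI cells exceeded TPM 1 against 1 of 25 LB EPI cells.

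**Figure D3:**
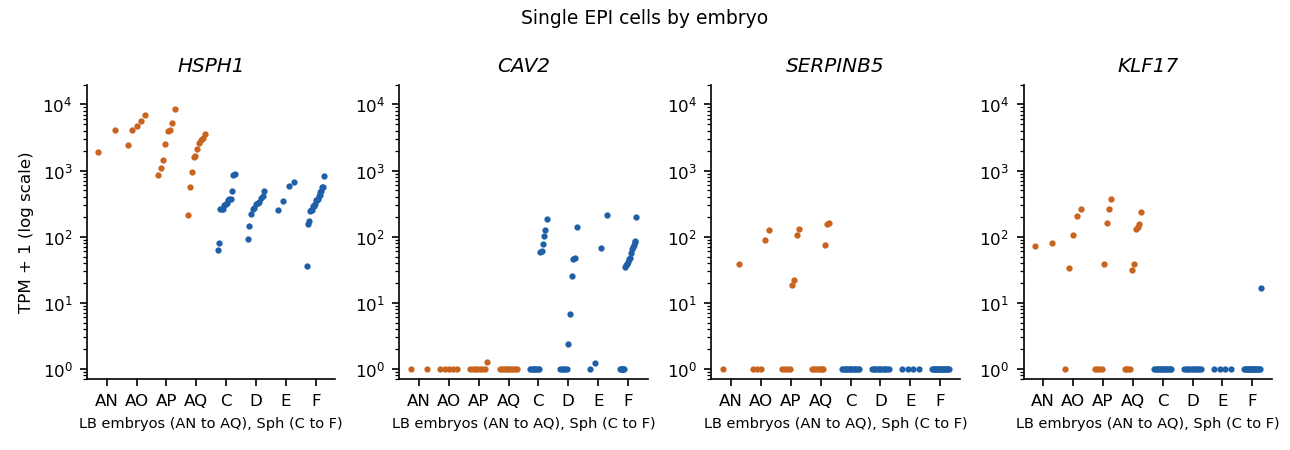
Each point is a cell, placed by embryo on the x axis, with TPM + 1 on a log axis. HSPH1 was above TPM 1 in every cell of both stages and higher in LB EPI, CAV2 was above it in 27 of 48 Sph EPI cells, SERPINB5 in 10 of 25 LB EPI cells and KLF17 in 16 of 25 LB EPI cells and 1 Sph EPI cell.

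A pair of abundant genes rose, the first with a small spread within each stage. EIF4A1, the RNA helicase of cap-dependent translation initiation, measured 1907, 1840.1, 1783 and 2146 CPM in LB EPI and 4117, 4129, 4103 and 4334 CPM in Sph EPI (log2 fold change 1.12 ± 0.13, adjusted p = 0.00805), the smallest fold change among the called genes. ANXA1, a calcium-dependent phospholipid-binding annexin, measured 638, 434, 507.5 and 658 CPM in LB EPI and 2200.0, 1970.3, 2669.9 and 3619 CPM in Sph EPI (log2 fold change 2.22 ± 0.24, adjusted p = 0.00445). Both were above TPM 1 in every epiblast cell of either stage, and both calls held whichever embryo was left out, while EIF4A1 was lost in both sets of pools and ANXA1 in the last 4. SSR2, a subunit of the translocon-associated complex of the endoplasmic reticulum, measured 93.4, 155, 194 and 152 CPM in LB EPI and 628, 448, 476 and 504.5 CPM in Sph EPI (log2 fold change 1.79 ± 0.29, adjusted p = 0.0449), and its call was lost in each of 7 fits that left out an embryo other than AN.

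PFKL, the liver-type phosphofructokinase of glycolysis, measured 26.7, 27.5, 14.9 and 21.5 CPM in LB EPI and 284, 206, 156 and 145 CPM in Sph EPI (log2 fold change 3.13 ± 0.43, adjusted p = 0.0154). It exceeded TPM 1 in 12 of 25 LB EPI cells and in 45 of 48 Sph EPI cells, and the call was lost without AP, AQ, C or D. HAS2, which makes the matrix polysaccharide hyaluronan, measured 6.92, 15.5, 8.13 and 21.1 CPM in LB EPI and 76.2, 229, 544 and 127 CPM in Sph EPI (log2 fold change 4.23 ± 0.70, adjusted p = 0.049). Its values spread over a wide range in Sph EPI, with E the highest and C the lowest, and the call was lost without AN and E together (adjusted p = 0.0751) and without AN, AO, AP, AQ, D or E alone.

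TMEFF2 and MAP9 had no count in LB EPI. TMEFF2, a transmembrane protein with EGF and follistatin-like domains, measured 34.8, 38.98, 31.7 and 55.97 CPM in Sph EPI and exceeded TPM 1 in 30 of 48 cells. Its level was at least 766-fold higher in Sph EPI, against a floor of 3 counts over LB EPI (adjusted p = 0.0369). MAP9, a microtubule-associated protein of the mitotic spindle, measured 22.7, 32.5, 99.8 and 25.3 CPM and exceeded TPM 1 in 18 of 48 cells, at least 566-fold higher by the same floor (adjusted p = 0.0449). TMEFF2 was lost without AP, AQ, C, D, E or F, and MAP9 in every fit that left out an embryo other than AN.

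A further 5 called genes carry no symbol in the tables used, 4 that fell and 1 that rose. ENSSSCG00000030029 had the smallest p of all, at 767, 645, 406 and 519 CPM in LB EPI and 46.9, 52.1, 62.7 and 52.9 CPM in Sph EPI (log2 fold change -3.44 ± 0.30, adjusted p = 0.00139). ENSSSCG00000012693 measured 821, 649.8, 648 and 559.5 CPM in LB EPI and 13.3, 36.5, 19.5 and 71.6 CPM in Sph EPI (log2 fold change -4.25 ± 0.52, adjusted p = 0.00818). ENSSSCG00000016548 rose from 19.02, 63.6, 10.19 and 12.1 CPM in LB EPI to 372, 894, 703.4 and 1038 CPM in Sph EPI (log2 fold change 4.84 ± 0.65, adjusted p = 0.0154). ENSSSCG00000030029 was lost in one model with the hypoblast, and ENSSSCG00000012693 there, in limma on TPM and without AN and E. ENSSSCG00000016548 was lost with voom, in the last 4 pools, without AQ and without AN and E. The other pair, ENSSSCG00000010842 and ENSSSCG00000014810, lost their calls in 8 and 13 of the 20 alternatives. Just past the threshold was CLU, the extracellular chaperone clusterin, at 611, 1261, 730.1 and 421 CPM in LB EPI and 118, 75.1, 127 and 221 CPM in Sph EPI (adjusted p = 0.0504).

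**Figure D4:**
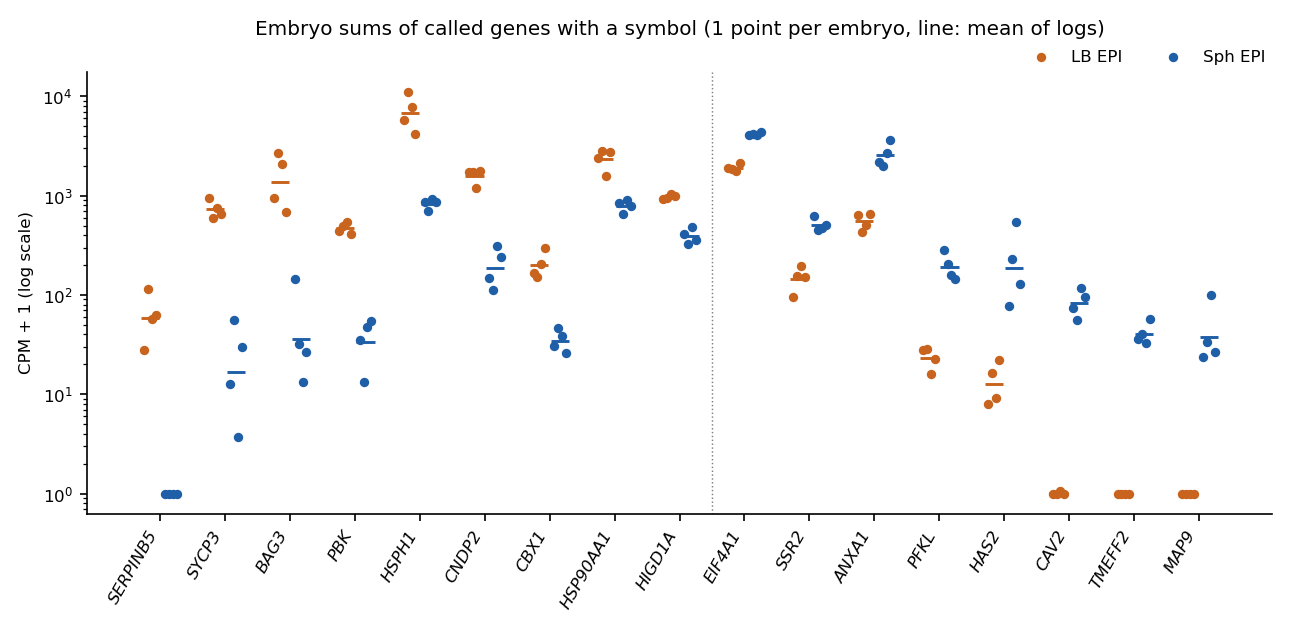
Embryo sums of 17 called genes with a symbol, as CPM + 1 on a log axis, with 1 point per embryo and a line at the mean of the logs. The 9 genes left of the dotted line fell in Sph EPI and the 8 right of it rose, and no gene shows overlap between the stages.

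KLF17, a zinc-finger factor of the naive human epiblast, was not called. It measured 42.5, 91.2, 48.3 and 36.8 CPM in LB EPI and 0, 0, 0 and 0.831 CPM in Sph EPI, where 37 counts in F were the only ones. The embryo values did not overlap, but the adjusted p was 0.141 (unadjusted p = 0.00115), and 4 of the 20 alternatives called it. The 16 LB EPI cells above TPM 1 came from all 4 embryos, 2 of 2 in AN, 4 of 5 in AO, 4 of 8 in AP and 6 of 10 in AQ, and the single Sph EPI cell came from F. The most abundant other members of the core and naive list were not called either. STAT3, which transmits LIF and IL6 signals, had a log2 fold change of -0.97 (adjusted p = 0.708). PRDM14, which represses differentiation genes, had -0.42 (adjusted p = 0.946), and IL6ST, the shared IL6-family receptor subunit, -0.06 (adjusted p = 1). The sign of PRDM14 and IL6ST changed with the processing. NR5A2, a nuclear receptor named after its values were seen, measured 35.3, 6.23, 16.95 and 115 CPM in LB EPI and 1.13, 5.14, 0 and 4.24 CPM in Sph EPI without a call (adjusted p = 0.35). No member of the 13 tested passed, and 2 were below in every Sph EPI embryo and none above, against 2.96% and 5.14% of all genes. The median log2 fold change was -2.12, against 0 over all genes.

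The formative and primed list also had no call among its 25 tested entries, and its median was 0.75. Of these entries 2 were above in every Sph EPI embryo (5.14% of all genes) and none below (2.96%). OTX2, a homeobox factor of the primed epiblast, measured 142, 51.8, 214 and 226 CPM in LB EPI and 468, 306, 554 and 442 CPM in Sph EPI without overlap (adjusted p = 0.223). USP44, a deubiquitinase of dividing cells, measured 295, 78.9, 269.8 and 185 CPM in LB EPI and 503.3, 689, 469 and 884 CPM in Sph EPI, again without overlap (adjusted p = 0.168). The de novo DNA methyltransferases were not called, DNMT3A at 304, 895, 489 and 1057 CPM in LB EPI and 489, 539, 457 and 203 CPM in Sph EPI (adjusted p = 0.488), and DNMT3B with a log2 fold change of -0.25 (adjusted p = 0.896).

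Of 18 entries for germline-associated genes tested, 1 was called, lower in Sph EPI, against 0.156% of all genes tested. By sign alone, 17 were lower in Sph EPI and 1 higher, and the median log2 fold change was -2.38. In every Sph EPI embryo 4 entries were below and none above, against 2.96% and 5.14% of all genes tested. The called gene was SYCP3, a component of the meiotic synaptonemal complex, at 937, 599, 757 and 659 CPM in LB EPI and 11.7, 54.5, 2.74 and 28.6 CPM in Sph EPI (log2 fold change -4.92 ± 0.75, adjusted p = 0.0369). The call was lost without AP, AQ, C or F. SYCP3 exceeded TPM 1 in all 25 LB EPI cells and in 30 of 48 Sph EPI cells. TFAP2C, a factor of trophectoderm and primordial germ cells, measured 791, 226, 462 and 352 CPM in LB EPI and 21.3, 7.08, 37.2 and 84.8 CPM in Sph EPI and did not pass (adjusted p = 0.0717). GTSF1, a partner of Piwi proteins, had a log2 fold change of -1.13 (adjusted p = 0.366), DND1, an RNA-binding protein of germ cells, -2.48 (adjusted p = 0.393), and TDRKH, a Tudor protein of the piRNA pathway, -0.47 (adjusted p = 0.69).

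In the metabolic lists, PFKL was the only call. Over all genes tested, 0.156% were called, 5.14% were above in every Sph EPI embryo and 2.96% below. Of 28 glycolysis and glycogen genes tested, 3 were above in every Sph EPI embryo and 1 below, with a median of 0.46. PKM, the last kinase of glycolysis, measured 1474, 1395, 1592 and 1381 CPM in LB EPI and 2917, 2273, 2364 and 2387 CPM in Sph EPI without overlap (adjusted p = 0.0762). PGM2, a phosphoglucomutase, measured 1439, 908, 1186 and 1118 CPM in LB EPI and 783, 629, 739 and 601 CPM in Sph EPI (adjusted p = 0.206). TKT, the transketolase of the pentose phosphate pathway, had a log2 fold change of 0.37 (adjusted p = 0.575). LDHA, which makes lactate, had 0.70 (adjusted p = 0.72) and reversed to -0.47 without C, the embryo with 3076 CPM where the other 3 had 458 to 546. Of 40 nuclear-encoded respiratory chain subunits, 9 lay above in every Sph EPI embryo and 2 below, none was called, and the median was 0.19. In the hypoxia response list, EGLN3, an oxygen-sensing prolyl hydroxylase, measured 1.48, 67.4, 52.7 and 40.2 CPM in LB EPI and 551, 553, 422 and 578 CPM in Sph EPI without a call (adjusted p = 0.0975), and no other of the 22 genes tested separated the stages.

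Among structural genes, HAS2 was the call of 48 extracellular matrix and integrin entries tested. Of these 48, 2 were above and 1 below in every Sph EPI embryo. The shares over all genes tested were 0.156% called, 5.14% above and 2.96% below. The list of 30 cell-cell adhesion genes had no call, 7 above and 1 below. The 42 entries of cytoskeleton and axon development had no call, with 6 above in every Sph EPI embryo and none below. Its most abundant member, KRT8, a keratin of simple epithelia, measured 2255, 1539, 2716 and 1825 CPM in LB EPI and 7321, 5831, 2395 and 7590.4 CPM in Sph EPI (adjusted p = 0.112). ROBO1 and ROBO2, receptors for Slit guidance cues named after their values were seen, had no count in LB EPI. In Sph EPI, ROBO1 measured 24.2, 0.791, 85.1 and 10.22 CPM (adjusted p = 0.126) and ROBO2 20.5, 4.74, 22.95 and 3.93 CPM (adjusted p = 0.15). EOMES, a T-box factor of early mesendoderm, was also at 0 in LB EPI and at 8.03, 6.25, 0 and 9.16 CPM in Sph EPI (adjusted p = 0.304), with 13 of 48 cells above TPM 1. None of the 12 gastrulation entries tested was called.

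**Figure D5:**
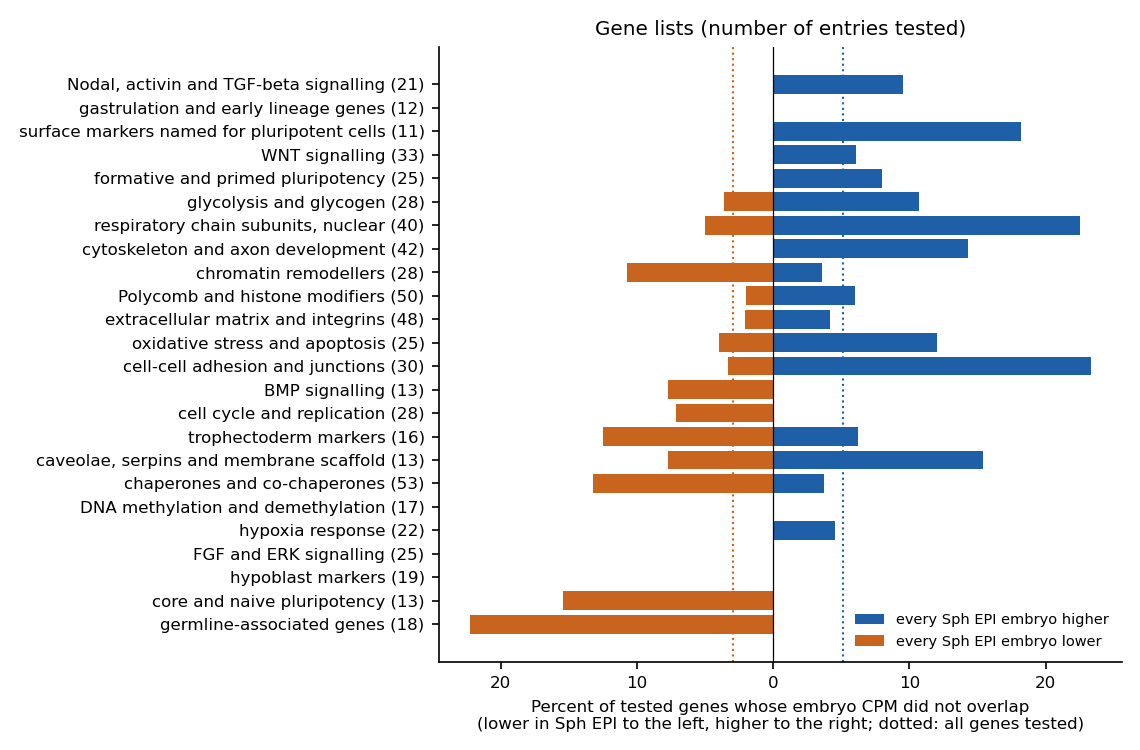
For each gene list with at least 10 genes tested, the bars give the percent of its genes whose CPM in every Sph EPI embryo was above (right) or below (left) every LB EPI embryo. The dotted lines mark all genes tested, 5.14% above and 2.96% below, and lists are ordered by their median log2 fold change.

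No gene was called in the lists for Nodal, activin and TGF-beta (21 tested), BMP (13), FGF and ERK (25) or WNT signalling (33), nor for DNA methylation (17), Polycomb and histone modifiers (50), chromatin remodellers (28), cell cycle and replication (28) or oxidative stress and apoptosis (25). Their median log2 fold changes ran from -0.68 for FGF and ERK to 1.22 for Nodal, activin and TGF-beta. GMNN, the replication licensing inhibitor geminin, measured 321, 455, 289 and 393 CPM in LB EPI and 156, 74.6, 67.5 and 53.6 CPM in Sph EPI and came nearest in these lists (adjusted p = 0.0607, named after its values were seen).

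Markers of other cell types gave no call. None of the 19 hypoblast markers separated the stages without overlap, against 2.96% of all genes below and 5.14% above. Of the 19, 6 had an unadjusted p under 0.05 in edgeR's test, all lower in Sph EPI, against 6.05% of all genes tested. Their part in the differences above was not tested. Without AO, the embryo with the highest hypoblast sum, the calls numbered 27 and included 16 of the 23, so that 7 were lost. APOA2, an apolipoprotein of the hypoblast, was high in 1 embryo, at 0, 67.1, 1.43 and 0.104 CPM in LB EPI and at most 0.0291 CPM in Sph EPI (adjusted p = 0.218). NID2, a basement membrane protein, measured 0, 34.1, 0 and 0 CPM in LB EPI, with all of it in AO. Of 16 trophectoderm markers, none was called, and 2 were below and 1 above in every Sph EPI embryo, against 2.96% and 5.14% of all genes. The sum of the 16 was 3403 to 5695 CPM in LB EPI and 2854 to 10499 CPM in Sph EPI, most of it KRT8 and KRT18. The 5 markers of blood and endometrial cells tested summed to at most 20.8 CPM in LB EPI and 6.42 CPM in Sph EPI. XIST, the RNA of the inactive X chromosome, had no count in AN, AQ or E. In LB EPI it had counts in 2 of 5 cells of AO and 5 of 8 of AP. In Sph EPI it had them in 9 of 11 cells of D, 4 of 19 of F and 1 of 14 of C, where 2 counts were found. Embryo sex is not given in the labels, and sex was no term of the test. From Y chromosome genes the study counted most Sph EPI cells as male and LB EPI cells about equally of both sexes. By embryo, it counted most spherical embryos as male and the late blastocysts equally of both sexes, over both lineages. It also found XIST sporadically in male cells.

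Whether the stage difference itself differed between epiblast and hypoblast was tested over the 16 embryo sums of both lineages, with 36 LB HYPO cells from 5 embryos and 12 Sph HYPO cells from 3. These sums came from 10 embryos, 6 of which gave both an EPI and a HYPO sum, and the model treated the sums as independent. The interaction passed for 6 of 14721 genes, or 0.0408%, and 1597 had an unadjusted p under 0.05. Its median over all genes was 0.43 on the log2 scale, so values are to be read against that shift. KRT18, the keratin partner of KRT8, was not called in the epiblast, at 2412, 1319, 2050.2 and 2219.8 CPM in LB EPI and 1626, 1678, 242 and 2393 CPM in Sph EPI, where E was low. In the hypoblast it measured 105 to 279 CPM in LB HYPO and 1616 to 7441 CPM in Sph HYPO (interaction -4.63 ± 0.79, adjusted p = 0.0371). CLU was lower in Sph EPI than in LB EPI in every embryo, and in the hypoblast measured 50.7 to 368 CPM in LB HYPO and 627 to 2553 CPM in Sph HYPO (interaction -5.16 ± 0.78, adjusted p = 0.0176). PLA2G7, a phospholipase that degrades platelet-activating factor, measured 240.1, 234, 142 and 197 CPM in LB EPI, 70.7, 11.1, 0 and 68.9 CPM in Sph EPI and 0 to 0.0748 CPM in LB HYPO and 124 to 255 CPM in Sph HYPO (adjusted p = 0.0127). The others were SLC44A4, a choline transporter-like protein, DMXL1 and ENSSSCG00000016548, the only one of the 6 that was also called within the epiblast. With the embryo as a block, over the 6 embryos with both lineages, 12 genes passed, 4 of the 6 among them, and SLC44A4 (adjusted p = 0.344) and DMXL1 (adjusted p = 0.327) were lost. The count was 1 without AN and E. It rose to 165 without F in Sph HYPO, to 15 without AO in LB HYPO and to 12 without AO in LB EPI. It was 3 without AQ in LB EPI or AL in LB HYPO, 2 without AM or AP in LB HYPO or E in Sph EPI, 1 without C in Sph HYPO, and 0 without C or without D in Sph EPI, where edgeR left 1339 and 1330 genes at an unadjusted p under 0.05.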

How the data were processed

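Per the labels and the study's methods, single cells were sequenced by Smart-seq2, and the authors aligned reads with HISAT2 2.1.0 and counted them per gene with HTSeq. They deposited raw counts and TPM values for 22840 entries, 16 of which were added to the annotation by the authors. The methods compared cells with a single-cell error model, while here counts were summed by embryo. Genes above TPM 1 in at least 3 of the 220 cells were kept (14721). Sums were compared with edgeR 4.0.16 (TMM, quasi-likelihood test, Benjamini-Hochberg 0.05), and the stage difference between lineages as an interaction. DESeq2 1.42.0 and limma 3.58.1 were alternatives, and scripts were tested on simulated data. Symbols, given for 11437 identifiers holding 75.3% of counts, came from a reference table. TPM served for shares of cells, with Clopper-Pearson intervals. Replicates are embryos read from the cell identifiers, and whether 2 embryos shared a sow is not stated. Named genes were the 4 comparison markers, up to 12 called genes with a symbol and non-overlapping embryos in each direction, called list members, and up to 4 abundant uncalled members of each list described. Members and lists were chosen with earlier results of these data known. In 6 lists 1 gene (DND1, DNMT3A, ITGB3, NES or PAX6) has an Ensembl entry and one added by the authors, and both were counted. The interaction model has no embryo term. Of the called genes, 1 is not reported here.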

Additional observations from a re-analysis of the deposited data

Results flagged for a closer look

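In 122 groups of 4 embryos examined, 17 had 1 embryo far from the other 3 by the ratio of gap to range. The limit used gives about 1 in 20 for normally distributed values, which CPM need not be. Any count in 1 embryo is flagged where the other 3 are at 0, as for CAV2, KLF17, CAV1, NID2 and, in Sph EPI, APOA2. The number of flags therefore cannot be set against that rate. In LB EPI, AP was high for CAV2 (0.0573 CPM, 1 count) and TCP1 (4044 CPM) and low for CNDP2 (1191 CPM). AO was high for ENSSSCG00000016548 (63.6 CPM), CAV1 (4.18 CPM), APOA2 (67.1 CPM) and NID2 (34.1 CPM). In Sph EPI, C was high for BAG3 (144 CPM), LDHA (3076 CPM) and APOA2 (0.0291 CPM). F was high for EIF4A1 (4334 CPM), KLF17 (0.831 CPM) and NID2 (0.0674 CPM). E was high for MAP9 (99.8 CPM), IL6ST (117 CPM) and DND1 (217 CPM), and low for EGLN3 (422 CPM).

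The stage difference in EPI minus that in HYPO passed edgeR's quasi-likelihood test for 6 genes. On the log2 scale it was -14.67 for PLA2G7 (adjusted p = 0.0127), -5.16 for CLU (adjusted p = 0.0176), -14.90 for SLC44A4, -5.66 for DMXL1 and -4.63 for KRT18 (adjusted p = 0.0371 for these 3), and 4.34 for ENSSSCG00000016548 (adjusted p = 0.0422). The sizes for PLA2G7 and SLC44A4 are set by groups at or near 0, LB HYPO for both and also Sph EPI for SLC44A4. They are therefore not well determined. SLC44A4 measured 0.247, 1.28, 3.04 and 5.44 CPM in LB EPI, 0.0872, 0, 0 and 0.157 CPM in Sph EPI and 0 to 0.449 CPM in LB HYPO and 55.97 to 268 CPM in Sph HYPO. DMXL1 measured 62.5, 66.8, 19.01 and 90.8 CPM in LB EPI, 49.9, 28.98, 22.95 and 29.9 CPM in Sph EPI and 3.47 to 25.97 CPM in LB HYPO and 263 to 578 CPM in Sph HYPO.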

How the results depend on the processing

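The 23 calls between LB EPI and Sph EPI became 844 with DESeq2, 580 with limma voom and sample quality weights, 97 with limma on mean log2(TPM + 1), 51 with no filter, 45 without TMM, 15 in the first 4 pools, 7 in the last 4 pools and 11 in one model with HYPO. Leaving out 1 embryo gave 11 to 41 calls. The cause of these shifts was not tested. The other 4 alternatives stayed within 1.5 times of the main count. The 6 interaction calls became 540 with DESeq2, 493 with voom, 171 with limma on mean log2(TPM + 1), 13 without TMM, 15 with DESeq2 size factors, 10 with no filter, 13 in the first 4 pools, 0 in the last 4 pools (906 at an unadjusted p under 0.05), 12 with the embryo as a block and 1 without AN and E (an alternative chosen after seeing the data). Leaving out 1 embryo gave 0 to 165. No paired analysis was possible between LB EPI and Sph EPI because they come from different embryos.

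Of 1175 values of 59 named genes under the alternatives, 969 kept direction and side of the threshold, 135 lost a call, 54 gained one and 17 reversed, and no called gene was among those that reversed. HSP90AB1 reversed to 0.0093 with voom, PRDM14 to 0.61 with voom and 0.33 without AN and E, and KRT18 to 0.070 without AN and E. IL6ST reversed to 6.49e-05 without TMM, 0.43 in the last 4 pools and 0.027 in one model with HYPO. Over the fits that left out 1 embryo, the log2 fold change ran from -0.30 to 0.00180 for HSP90AB1, from -0.20 to 0.034 for TCP1, from -0.53 to 0.18 for DNMT3B, from -1.29 to 0.81 for IL6ST, from -0.47 to 1.08 for LDHA and from -10.21 to 2.14 for NID2. Genes detected per cell and the correlation between cells kept their direction in each alternative, and the differences between stages ranged from 226 to 817 genes and from 0.048 to 0.086. All 16 shares of cells at other TPM limits stayed within their interval.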

Other observations

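Protein-coding neighbours of called genes, in the RefSeq order of Sscrofa11.1, were looked up after the calls were known, and none of the 16 pairs with values in both genes had a called neighbour. The smallest p was that of CNDP1, the carnosinase gene next to CNDP2, at 0, 48.6, 30.5 and 45.4 CPM in LB EPI and 0.0291, 0, 0 and 0.0225 CPM in Sph EPI (adjusted p = 0.0841 in edgeR). CAV1, next to CAV2, followed (adjusted p = 0.167).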
